A study of Mus musculus with 4 samples.

Results

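The endoplasmic reticulum (ER) folds, checks and exports secreted and membrane proteins, and 36 mouse genes of this machinery are described here: 20 folding factors, 9 factors of ER-associated degradation, 4 genes of the unfolded protein sensors and 3 genes of protein entry. They were listed by name, with no threshold on a measured value, though earlier results of these data were known when the list was made. All 36 had at least 1 probe, 63 in all, among the 20136 named genes of the array, and 31 of the 36 were bright enough to be tested beside 10405 genes in all. RNA came from lineage-negative bone marrow, the progenitor-rich fraction left after cells with mature blood cell antigens are removed. The control group, Atad3afl/fl, carries floxed alleles of Atad3a, an ATPase of the inner mitochondrial membrane. The deletion group, Atad3afl/flMx1Cre, carries the same alleles and Mx1Cre, a Cre recombinase behind an interferon-inducible promoter that is not restricted to blood cells. Both groups received poly I:C, a synthetic RNA that switches this promoter on, and both were sampled on day 12, with 2 samples a group. Only the deletion group carried Cre, so an effect of Cre cannot be told apart from one of losing Atad3a, and "after deletion" names the group alone. The sources used here give neither strain nor age.

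Unfolded protein in the ER is sensed by membrane proteins that the chaperone BiP holds in check. IRE1 alpha, the product of Ern1, cuts the mRNA of Xbp1 so that it encodes an active transcription factor. ATF6 and its relative ATF6B travel to the Golgi and are cut there to release transcription factors, and PERK, the product of Eif2ak3, slows translation and favours the factor ATF4. ATF6 and XBP1 raise chaperones, disulfide isomerases and the degradation machinery, in which lectins and mannosidases pick misfolded glycoproteins, SEL1L passes them on and the ubiquitin ligase HRD1, the product of Syvn1, marks them for the proteasome. Cells that secrete large amounts of protein, such as plasma cells, run this machinery at a high level.

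Each sample was hybridised to 1 single-colour Illumina bead array. Signals were background corrected, quantile normalized and put on a log2 scale, on which 1 unit is a 2-fold difference and every change is deletion minus control with its standard error (SE). Groups were compared with limma over the 18367 probes detected on at least 2 arrays, with p-values adjusted by Benjamini-Hochberg, and each gene was represented by its brightest probe. Probes detected above the negative control beads made up 37.5% to 39.9% of all probes per array, and mean raw signals lay between 376 and 419. The correlation between arrays was 0.986 within the controls, 0.99 within the deletion group and 0.923 to 0.942 across groups. Atad3a itself read 10.92 and 11.05 in controls and 10 and 9.83 after deletion in log2 intensity, a fall of 2.1-fold (log2 change -1.07, SE 0.13, limma adjusted p = 0.00866). Its groups did not overlap. Whether its single probe lies in the deleted exons was not determined, and a probe outside them would check nothing. Without deletion replicate 2 its adjusted p was 0.0646. Whether the replicates were separate animals is not in the labels, so the spread behind each p-value is that between these samples and may be technical. Relabelling 2 against 2 arrays cannot give an exact permutation p below 0.333.

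The ER stress response element (ERSE) is the promoter sequence through which ATF6 and XBP1, with the factor NF-Y on its CCAAT part, are known to raise ER genes. Its letters, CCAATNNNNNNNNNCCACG, were searched on both strands from 250 bases before to 50 after the annotated start in RefSeq promoters of GRCm38.p6. Promoters of 29 of the 36 genes were matched, and 10 of these 29 (34.5%) held the letters, against 37 of 27025 genes in the table (0.137%). The element is known from ER genes and the list was made by name, so this share and those below describe the list and test nothing. Sites of 9 of these genes are printed as a description, and binding to them was not measured. They are given with their strand and read from CCAAT to CCACG, with both fixed parts in capitals.
Hspa5 (chr2:34772025-34772043, + strand): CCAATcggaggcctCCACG
Hsp90b1 (chr10:86705533-86705551, + strand): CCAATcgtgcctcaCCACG
Hsp90b1, other site (chr10:86705638-86705656, - strand): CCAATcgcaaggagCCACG
Calr (chr8:84847075-84847093, + strand): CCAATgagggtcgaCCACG
Canx (chr11:50325800-50325818, - strand): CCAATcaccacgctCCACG
Dnajc3 (chr14:118937827-118937845, + strand): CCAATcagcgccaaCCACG
Creld2 (chr15:88819520-88819538, - strand): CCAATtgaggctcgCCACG
Derl3 (chr10:75893242-75893260, - strand): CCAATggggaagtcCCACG
Pdia6 (chr12:17266491-17266509, + strand): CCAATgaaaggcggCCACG
Syvn1 (chr19:6046532-6046550, + strand): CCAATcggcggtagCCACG
The other gene with the letters was Ero1lb. The ERSE contains the shorter run CCACG, which 82.8% of the matched genes held against 35.5% of all genes. TGACGTG, the core of the unfolded protein response element read by XBP1, was present in Hspa5 and Fkbp11, 6.9% against 2.22% of all genes. TGATGNAA, letters of composite sites read by ATF4, was present in 1 of the 29 genes, Herpud1 (3.45% against 4.51%). A shorter arrangement, ATTGGNCCACG, was added after the other motifs had been counted, and it was present in Dnajb11 and Herpud1 (6.9% against 0.0444%).

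Whole promoters are printed for 3 genes that each hold 1 ERSE and whose results were different: Hspa5, the BiP gene, which did not pass the test, Dnajc3, which rose, and Syvn1, which fell. They run in gene direction on the + strand of GRCm38.p6, with the ERSE in capitals and, in Hspa5, also the TGACGTG core.
Hspa5 promoter (chr2:34771840-34772139, + strand): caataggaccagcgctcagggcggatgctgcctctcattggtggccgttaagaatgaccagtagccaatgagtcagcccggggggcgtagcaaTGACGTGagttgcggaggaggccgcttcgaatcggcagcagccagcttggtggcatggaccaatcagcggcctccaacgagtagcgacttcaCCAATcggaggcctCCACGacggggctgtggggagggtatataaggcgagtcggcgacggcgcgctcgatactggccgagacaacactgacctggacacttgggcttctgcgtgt
Dnajc3 promoter (chr14:118937682-118937981, + strand): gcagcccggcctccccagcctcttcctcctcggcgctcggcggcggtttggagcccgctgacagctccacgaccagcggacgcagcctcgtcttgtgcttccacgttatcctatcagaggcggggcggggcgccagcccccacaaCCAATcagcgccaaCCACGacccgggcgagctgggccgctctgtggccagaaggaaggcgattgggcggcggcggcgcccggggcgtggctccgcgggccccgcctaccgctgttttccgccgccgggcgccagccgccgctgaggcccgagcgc
Syvn1 promoter (chr19:6046326-6046625, + strand): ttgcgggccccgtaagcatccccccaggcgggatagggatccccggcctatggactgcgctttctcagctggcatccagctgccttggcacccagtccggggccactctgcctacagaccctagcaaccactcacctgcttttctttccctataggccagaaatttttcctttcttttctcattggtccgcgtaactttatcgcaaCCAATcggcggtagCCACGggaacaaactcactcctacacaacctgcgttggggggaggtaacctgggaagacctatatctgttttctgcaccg
The ERSE begins 65 bases before the start in Hspa5, 105 in Dnajc3 and 44 in Syvn1. The promoters of Xbp1 and Sel1l hold neither the ERSE nor TGACGTG in this window.

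Of the 31 genes tested, 6 rose after deletion (Xbp1, Ern1, Sel1l, Edem1, Dnajc3 and Dnajb9), 1 fell (Syvn1) and 24 did not pass at an adjusted p under 0.05. The share that rose was 19.4%, beside 14.8% of all 10405 genes tested, so it was close to the background. The share that fell was 3.23%, beside 14.2% of all genes. By function, 2 of 17 tested folding factors, 2 of 7 degradation factors and 2 of 4 sensor genes rose, and the 3 entry genes did not pass. The median log2 change was 0.31, beside 0.0 over all genes, and 24 of the 31 estimates were positive. Against the control mean, the median of the 31 genes was 0.303 on deletion replicate 1 and 0.372 on deletion replicate 2, and the controls lay at 0.031 and -0.031. Without control replicate 1 or 2 the median log2 change was 0.378 or 0.372. Without deletion replicate 1 or 2 it was 0.372 or 0.303. Each of these fits leaves 1 sample in a group, and in each some calls were lost. A call can be lost there with little change in size: Dnajc3 had 1.16 with all arrays and 1.14 without deletion replicate 2. In bulk RNA, fewer cells of a type and less RNA per cell cannot be told apart, and this holds for every value below.

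**Figure D1:**
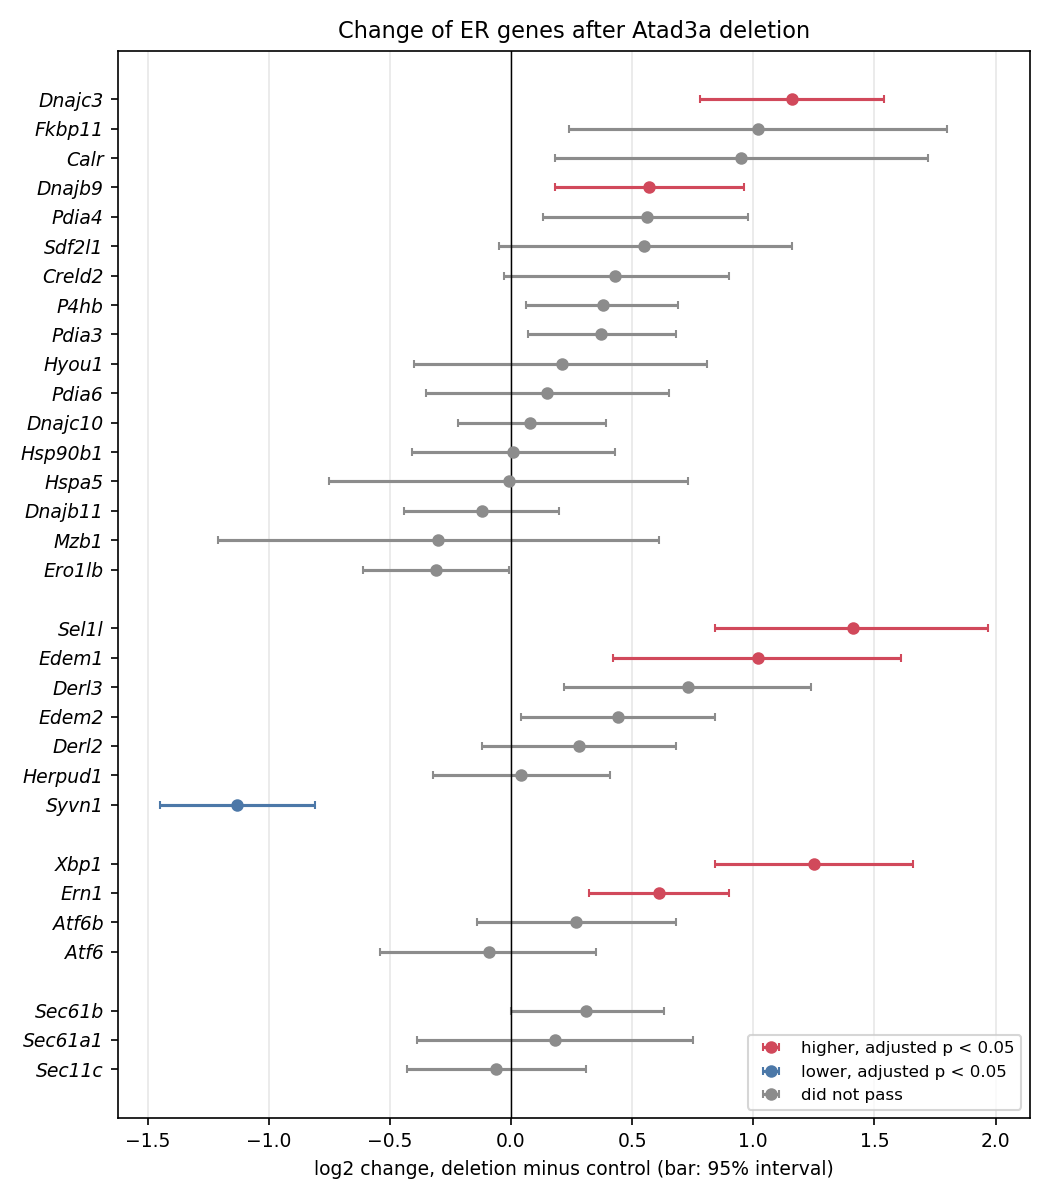
Log2 change of the 31 tested genes, deletion minus control, grouped by function, with 95% intervals from limma as bars. Xbp1, Sel1l, Dnajc3 and Edem1 lie at 1.02 or above and Syvn1 at -1.13, while the intervals of Hspa5, Hsp90b1, Herpud1 and Atf6 span 0. Fkbp11 also lies at 1.02 but did not pass.

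Among the sensors, both genes of the IRE1 branch rose and neither ATF6 gene passed. Xbp1, which encodes the transcription factor that IRE1 activates by splicing, read 10.86 and 10.86 in controls and 11.93 and 12.28 after deletion on the log2 intensity scale. Both deletion arrays lay above both controls, a rise of 2.38-fold (log2 change 1.25, SE 0.16, 95% interval 0.84 to 1.66, adjusted p = 0.00932). Where its single probe lies relative to the spliced segment was not determined, and spliced and unspliced forms were not told apart. Ern1, the kinase and nuclease IRE1 alpha, read 8.33 and 8.31 in controls and 8.91 and 8.94 after deletion. Its groups did not overlap either, and replicates differed by far less than the groups (1.52-fold, log2 change 0.61, SE 0.11, adjusted p = 0.0219). A dimmer Ern1 probe, undetected in both controls, was at least 1.2-fold higher (log2 change 0.61, adjusted p = 0.0673). Without deletion replicate 2 the adjusted p was 0.0532 for Xbp1 and 0.132 for Ern1. For Ern1 it was also above 0.05 without control replicate 2 (0.0561), without deletion replicate 1 (0.119) and with median scaling (0.0625).

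Atf6, the gene of the membrane-bound factor ATF6 alpha, read 4.94 and 5.21 in controls and 4.84 and 5.13 after deletion. These values lie near the background, with detection on 1 array of each group, and the groups overlap (log2 change -0.09, SE 0.17, 95% interval -0.54 to 0.35, adjusted p = 0.707). Atf6b, its relative, read 10.23 and 9.93 in controls and 10.27 and 10.42 after deletion. The deletion arrays were just above the higher control, which was within the error (log2 change 0.27, SE 0.16, adjusted p = 0.257).

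The PERK branch, given beside the sensors as 8 genes, held changes in both directions. Those of Trib3, Chac1 and Atf5 were much larger than any among the sensors. Eif2ak3, which encodes PERK, read 5.79 and 6.23 in controls and 5.0 and 5.13 after deletion, so the sensor itself was lower (log2 change -0.94, SE 0.19, adjusted p = 0.0267). Its probe is dim. The log2 change was -0.29 (adjusted p = 0.0596) with the authors' processed values and -0.35 (adjusted p = 0.045) without background correction, and the call was lost without deletion replicate 1 (0.129) or deletion replicate 2 (0.109). Ddit3, the gene of the stress factor CHOP, read 8.19 and 8.22 in controls and 9.66 and 9.62 after deletion (log2 change 1.43, SE 0.11, adjusted p = 0.00341). The other Ddit3 probe rose less, by 0.68 (SE 0.11, adjusted p = 0.0166), and the mean of both was 1.06. The targets Trib3, Chac1 and Atf5 had log2 changes of 5.57 (SE 0.16), 4.19 (SE 0.21) and 3.32 (SE 0.25), all past the threshold. The sizes depended on the correction: without background correction they were 3.93, 3.04 and 2.83. With the authors' processed values they were 3.85, 2.96 and 2.92. For Trib3 the mean of its detected probes gave 3.42. Ppp1r15a, the phosphatase subunit that reverses PERK's signal, fell (log2 change -1.63, SE 0.12, adjusted p = 0.00287), and Asns, asparagine synthetase, did not pass (0.18, adjusted p = 0.294). The probes of Atf4 disagreed: the brightest gave 0.11 (adjusted p = 0.559), a dimmer one passed with 1.19 (SE 0.30, adjusted p = 0.0444), and their mean gave 0.65 (adjusted p = 0.0612). ATF4 and its targets also answer to kinases other than PERK.

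**Figure D2:**
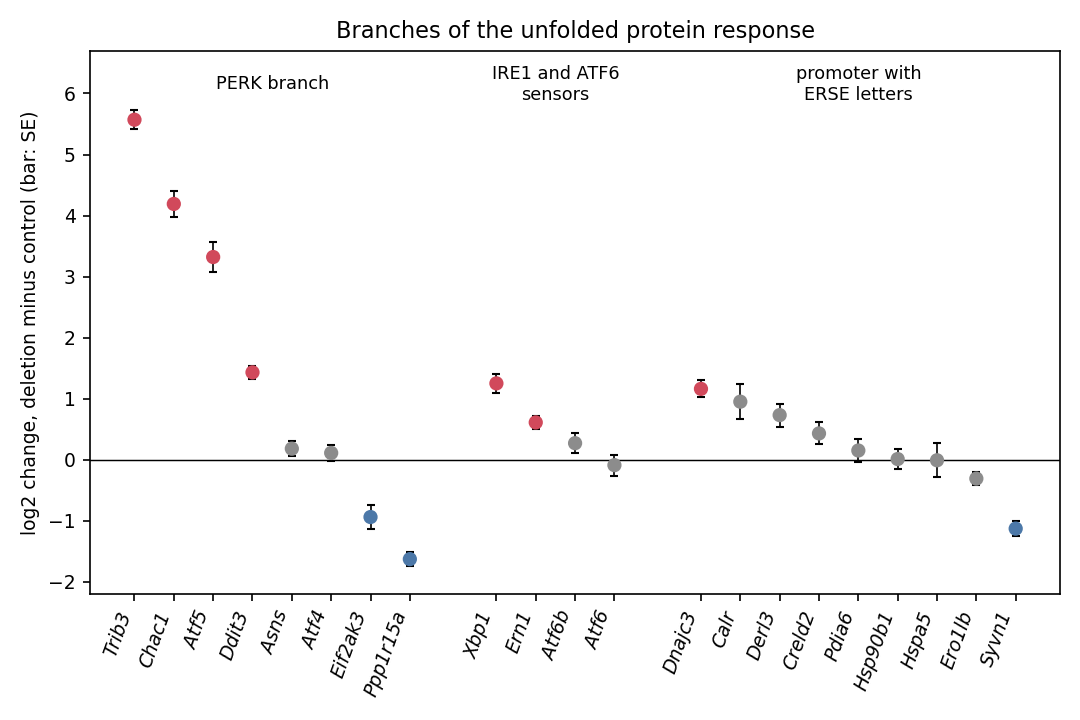
Log2 change, deletion minus control, of the PERK branch genes, the sensor genes and the genes with an ERSE in their promoter, with SE as bars. Trib3 lies at 5.57 and Xbp1 at 1.25, while the tested ERSE genes lie between the fall of Syvn1 at -1.13 and the rise of Dnajc3 at 1.16.

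Of the 9 tested genes with an ERSE, 1 rose (Dnajc3), 1 fell (Syvn1) and 7 did not pass, with a median log2 change of 0.15. Against 14.8% of all genes higher and 14.2% lower, 1 gene of 9 in each direction is near the background. Elsewhere in the table, 27 further genes held the letters. Of these, 4 were tested and 1 fell.

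The folding factors that passed, Dnajc3 and Dnajb9, are both J proteins, partners that stimulate the ATPase of BiP and bring it clients. Dnajc3, the J protein p58IPK, which is also described as an inhibitor of PERK, read 7.90 and 7.62 in controls and 8.90 and 8.95 after deletion. Both deletion arrays lay about 1 log2 unit above both controls (2.24-fold, log2 change 1.16, SE 0.14, adjusted p = 0.00907). Dnajb9, ERdj4, a repressor of IRE1 and a target of XBP1, read 8.34 and 8.05 in controls and 8.72 and 8.81 after deletion. Its groups did not overlap, and its rise of 1.48-fold only just passed (log2 change 0.57, SE 0.15, adjusted p = 0.0495). The dimmer of its probes gave 0.21 (adjusted p = 0.285), and the mean of both 0.39 (adjusted p = 0.0812). The call on Dnajb9 was also lost when any array but control replicate 1 was left out (0.104 without control replicate 2, then 0.165 and 0.215 without either deletion replicate), and with median scaling (0.0835), cyclic loess (0.0531), no detection filter (0.0697) and the replicate block (0.076). That on Dnajc3 was lost without deletion replicate 1 (0.0596) and deletion replicate 2 (0.0656). Dnajb11 (ERdj3) and Dnajc10 (ERdj5) had log2 changes of -0.12 and 0.08, both within the error, and Sdf2l1, the partner of ERdj3, had 0.55 (SE 0.23, adjusted p = 0.141). Sdf2l1 passed without control replicate 1 (log2 change 0.85, adjusted p = 0.0337).

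The major chaperones of the lumen did not pass. Hsp90b1, the Hsp90 protein GRP94, read 12.14 and 12.36 in controls and 12.12 and 12.40 after deletion. The groups overlap fully, and the 95% interval of the log2 change (0.01, SE 0.16) runs from -0.41 to 0.43. Hspa5, which encodes BiP, read 5.14 and 5.40 in controls and 4.88 and 5.63 after deletion by its single probe. Its deletion arrays lie outside the control arrays on either side, so the groups overlap. Raw signals of the Hspa5 probe were 107.9 and 121.9 in controls and 117.8 and 138.6 after deletion, with detection on 3 arrays, close to the background of the array. The interval of its log2 change (-0.01, SE 0.28, adjusted p = 0.978) runs from -0.75 to 0.73, so a change of BiP mRNA by less than that was not detectable with this probe. Hyou1, the exchange factor that releases nucleotide from BiP, was detected on 3 arrays (log2 change 0.21, SE 0.23, adjusted p = 0.537).

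**Figure D3:**
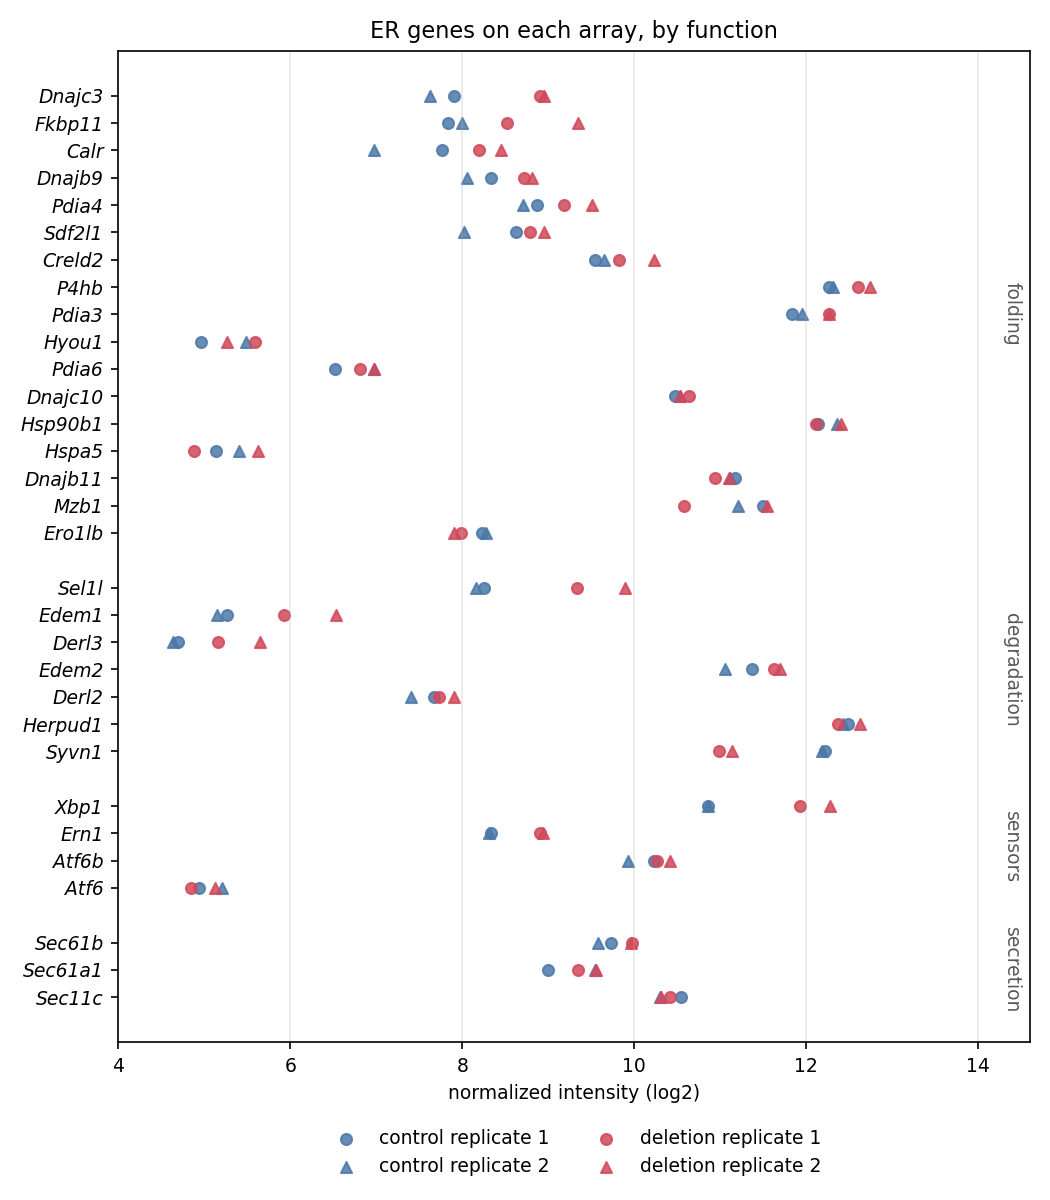
Log2 intensity of the 31 tested genes on each of the 4 arrays, grouped by function, 1 point per array. Points of the groups lie apart for Xbp1, Sel1l, Syvn1 and Dnajc3 and overlap for Hsp90b1, Hspa5, Herpud1 and Mzb1.

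Among the 36 genes, the lectin chaperone and disulfide isomerase genes that were tested all had positive estimates, and none passed. Pdia5, a disulfide isomerase of the wider pathway, rose and is given below. Calr, calreticulin, which holds glycoproteins until they fold, read 7.77 and 6.97 in controls and 8.20 and 8.45 after deletion. The controls differed by more than the gap between the groups (1.93-fold, log2 change 0.95, SE 0.29, adjusted p = 0.0742). It passed without control replicate 1 (log2 change 1.35, adjusted p = 0.022), and without control replicate 2 its log2 change was 0.55 (adjusted p = 0.105). Pdia3 (ERp57), Pdia4 (ERp72) and P4hb (PDI), which form and rearrange disulfide bonds, had log2 changes of 0.37 (SE 0.12, adjusted p = 0.0753), 0.56 (SE 0.16, adjusted p = 0.0655) and 0.38 (SE 0.12, adjusted p = 0.0811). All 3 had both deletion arrays above both controls, but the share of all genes that did so was not counted. Like Calr, all 3 passed with uncorrected signals and with the authors' processed values. Each of these genes also passed with a background model that ignores the control beads (normexp alone). The same held with a prior for the spread that follows intensity (trended robust prior). With median scaling, where the median of all genes was -0.11, Pdia3, Pdia4 and P4hb had log2 changes of 0.21, 0.37 and 0.20. Pdia6 (P5) had 0.15 (SE 0.19, adjusted p = 0.593). Ero1lb, an oxidase that recharges disulfide isomerases, was the folding factor with the lowest log2 change (-0.31, SE 0.11, adjusted p = 0.108), and Creld2, a secreted protein known as a marker of ER stress, had 0.43 (SE 0.18, adjusted p = 0.134).

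Canx, Ero1l, Manf, Edem3 and Derl1 were not tested, since none of their probes was detected on any array. The log2 intensity of Ero1l, the other oxidase of this pathway, ranged from 4.33 to 4.59 over its probes and arrays. The ranges were 4.32 to 4.51 for Canx (calnexin), 4.32 to 4.58 for Manf, a secreted cofactor of BiP, 4.36 to 4.47 for the mannosidase gene Edem3 and 4.39 to 4.70 for the derlin gene Derl1. None of these values is well above background, so they carry no direction.

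In degradation, the adaptor and the ligase of 1 complex moved in opposite directions. Sel1l, the membrane adaptor that stabilises HRD1 and hands it substrates, read 8.25 and 8.16 in controls and 9.34 and 9.89 after deletion by its brightest probe. Both deletion arrays lay over 1 log2 unit above the controls (2.65-fold, log2 change 1.41, SE 0.21, adjusted p = 0.0144). Syvn1, the ligase HRD1 itself, read 12.22 and 12.18 in controls and 10.99 and 11.14 after deletion. Its groups lay as far apart in the other direction (2.19-fold lower, log2 change -1.13, SE 0.12, adjusted p = 0.00654). Syvn1 has 1 probe, and its call was lost without deletion replicate 1 (0.053). Sel1l has 4 probes, and the 3 dimmer ones had log2 changes of 0.77 (adjusted p = 0.0714), 0.39 (adjusted p = 0.0728) and 0.41 (adjusted p = 0.092). The first of these was undetected in controls and gave a rise of at least 1.18-fold. Over the mean of its probes the rise was 0.74 (adjusted p = 0.0252), and the call by the brightest probe was lost without control replicate 2 (0.0586) and without deletion replicate 2 (0.0519).

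Of the mannose-trimming factors, which mark glycoproteins that have failed to fold, Edem1 rose and Edem2 did not pass by its brightest probe. Edem1 read 5.27 and 5.15 in controls and 5.93 and 6.53 after deletion, with no overlap (2.03-fold, log2 change 1.02, SE 0.23, adjusted p = 0.0352). This probe is dim: its log2 change was 0.41 with uncorrected signals, 0.54 with normexp alone and 0.34 (adjusted p = 0.0618) with the authors' processed values. The call on Edem1 was also lost without a detection filter (0.0673), without either control (0.0785 and 0.112) and without deletion replicate 2 (0.104). Edem2 read 11.37 and 11.06 in controls and 11.62 and 11.69 after deletion by its brightest probe (log2 change 0.44, SE 0.15, adjusted p = 0.0938). A dimmer Edem2 probe passed, with 7.29 and 6.30 in controls and 8.09 and 8.34 after deletion (log2 change 1.42, SE 0.35, adjusted p = 0.0444), and the mean of its probes gave 0.58 (adjusted p = 0.0281). The brightest Edem2 probe passed without control replicate 1 (adjusted p = 0.0474), with uncorrected signals (0.0482), with the trended robust prior (0.03) and with the authors' processed values (0.0488).

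Herpud1, a scaffold of the ligase complex and a strong target of ER stress, read 12.49 and 12.43 in controls and 12.37 and 12.63 after deletion. The deletion arrays lay on either side of the controls (log2 change 0.04, SE 0.14, 95% interval -0.32 to 0.41, adjusted p = 0.845), and the other Herpud1 probe gave -0.16 (adjusted p = 0.455). Derl2, a derlin, a membrane protein through which substrates leave the ER, had a log2 change of 0.28 (SE 0.15, adjusted p = 0.229). Derl3, the derlin of secretory tissues, read 4.70 and 4.64 in controls, where it was undetected, and 5.16 and 5.65 after deletion. Both deletion arrays were higher, by at least 1.29-fold (log2 change 0.73, SE 0.19, adjusted p = 0.0527), and it passed with median scaling (adjusted p = 0.0436) and with a trended robust prior (0.0427), while its log2 change was 0.25 with uncorrected signals.

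**Figure D4:**
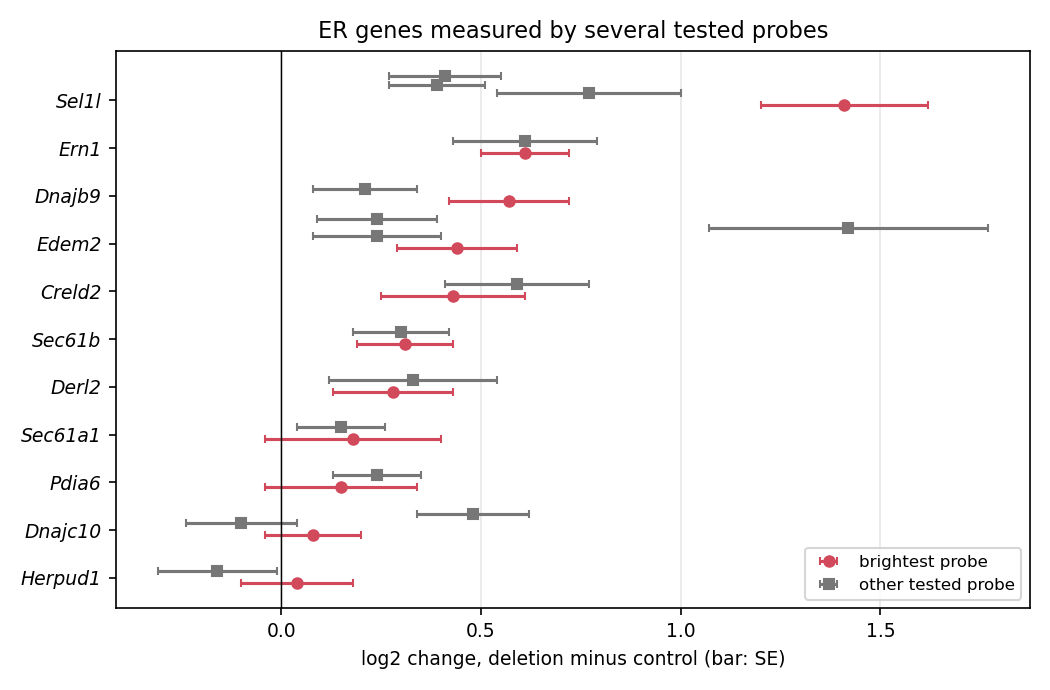
Log2 change, deletion minus control, of each tested probe of the 11 genes with several tested probes, with SE as bars. The brightest Sel1l probe, at 1.41, lies above its other 3 at 0.39 to 0.77, and 1 Edem2 probe, at 1.42, lies above the others.

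Genes of protein entry did not pass. Sec61a1 and Sec61b, subunits of the channel through which new chains enter the ER, had log2 changes of 0.18 (SE 0.22, adjusted p = 0.561) and 0.31 (SE 0.12, adjusted p = 0.118). Sec61b passed with the authors' processed values (adjusted p = 0.0437). Sec11c, a catalytic subunit of the signal peptidase, had -0.06 (SE 0.14, adjusted p = 0.76).

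Fkbp11 and Mzb1 are known from plasma cells, and their deletion arrays differed from each other. Mzb1, the chaperone cofactor pERp1 of B lineage and plasma cells, read 11.50 and 11.21 in controls and 10.58 and 11.54 after deletion. Deletion replicate 1 lay below both controls and deletion replicate 2 above both (log2 change -0.30, SE 0.35, 95% interval -1.21 to 0.61, adjusted p = 0.553). Fkbp11, a membrane prolyl isomerase, read 7.84 and 8.0 in controls and 8.52 and 9.35 after deletion. Both deletion arrays were higher, by unequal amounts (2.03-fold, log2 change 1.02, SE 0.30, adjusted p = 0.0652). Without deletion replicate 1 the log2 change of Fkbp11 was 1.44 (adjusted p = 0.0364), and without deletion replicate 2 it was 0.60 (adjusted p = 0.143). It also passed with the replicate block (0.0408), with uncorrected signals (0.0496), with normexp alone (0.0462) and with a trended robust prior (0.041).

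Most of the set differed in the same direction, though by less at the median. Of the 31 genes, 26 (83.9%) read higher on deletion replicate 2 than on deletion replicate 1, by a median of 0.17 on the log2 scale, beside 49.4% of all genes. Among 9 tested markers of plasma cells 8 did so, by a median of 0.43. Igj, the joining chain of secreted antibodies, read 4.96 and 5.95 on these arrays, and 4.96 was also the lowest detected signal on deletion replicate 1. Between the controls, 13 of the 31 genes (41.9%) were higher on replicate 2.

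Cell markers differed widely between the groups. Of the plasma cell markers 4 fell (Pou2af1, Irf4, Sdc1 and Cd38) and 1 rose (Tnfrsf17), Prdm1 was not tested, and the summed intensity of the list was 5835 and 6218 in controls and 2039 and 2867 after deletion. All 9 tested B lineage markers fell, with sums of 22056 and 21348 in controls and 1292 and 1740 after deletion, and Cd79a and Pax5 were not tested. All 10 erythroid markers fell, with sums of 46514 and 48301 in controls and 4165 and 2700 after deletion. Of 7 mast cell and basophil markers 6 rose (sums 28691 and 28600, then 44333 and 49936). Plasmacytoid dendritic markers, 2 of 4 tested higher, went from 2463 and 2570 to 3826 and 3931. Of 5 markers of granule-forming myeloid cells 3 fell (36777 and 39283, then 33664 and 32385). Of 6 progenitor markers, which check the sorted fraction, Flt3 and Mycn were detected on none of the 4 arrays and were not tested. The other 4 were tested: Cd34, Ly6a and Meis1 rose, Kit fell, and their sums were 3189 and 3311 in controls and 6944 and 6723 after deletion. The part of these shifts in the ER results was not tested.

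Other genes of ER entry, folding, glycosylation, export and degradation, 88 in number, gave the wider pathway. Of 79 tested, 10 rose (12.7%) and 5 fell (6.33%), with a median log2 change of 0.12, so both shares were below the 14.8% and 14.2% of all genes tested. Pdia5, a disulfide isomerase known to act on ATF6, rose most: it read 7.06 and 7.03 in controls and 8.34 and 8.56 after deletion, well apart (2.65-fold, log2 change 1.40, SE 0.13, adjusted p = 0.00512). Mcfd2, part of a cargo receptor for clotting factors, rose 1.88-fold (SE 0.12 on the log2 scale, adjusted p = 0.00963), and Cnpy3, which helps GRP94 fold Toll-like receptors, 1.87-fold (SE 0.11, adjusted p = 0.00914). Vimp, now named Selenos, a selenoprotein of the degradation complex, rose 1.64-fold (SE 0.14, adjusted p = 0.025). The log2 change of Cnpy3, 0.90 by its brightest probe, was 0.51 without background correction. The other genes that rose were Txndc5, Wfs1, Sil1, Ssr3, Ostc and Txndc12, with log2 changes of 0.46 to 0.71.

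The largest falls of the wider pathway included degradation as well as entry. Nploc4, a cofactor of the ATPase that pulls substrates out of the ER, had a log2 change of -0.93 (SE 0.17, adjusted p = 0.0236). Ube2j1, a ubiquitin-conjugating enzyme that works with HRD1, had -0.67 (SE 0.13, adjusted p = 0.0238). Srp19, part of the signal recognition particle, had -0.71 (SE 0.15, adjusted p = 0.0324), Sec63, a J protein of the entry channel, had -0.68 (SE 0.16, adjusted p = 0.0391), and Sec61a2, a channel subunit, had -0.55. Of the 8 genes with these largest rises and falls Pdia5 alone kept its call without any 1 array. The calls on Mcfd2, Cnpy3, Vimp, Nploc4, Srp19, Sec63 and Ube2j1 were lost when either deletion array was left out (0.0614 to 0.18 without replicate 1, 0.0727 to 0.161 without replicate 2). Without control replicate 1 those on Srp19, Sec63 and Ube2j1 were lost (0.0585, 0.0712 and 0.053), and without control replicate 2 that on Vimp (0.06). That on Sec63 was also lost without a detection filter (0.0605) and with the replicate block (0.0618), and the log2 change of Ube2j1 was -0.42 with the authors' processed values.

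**Figure D5:**
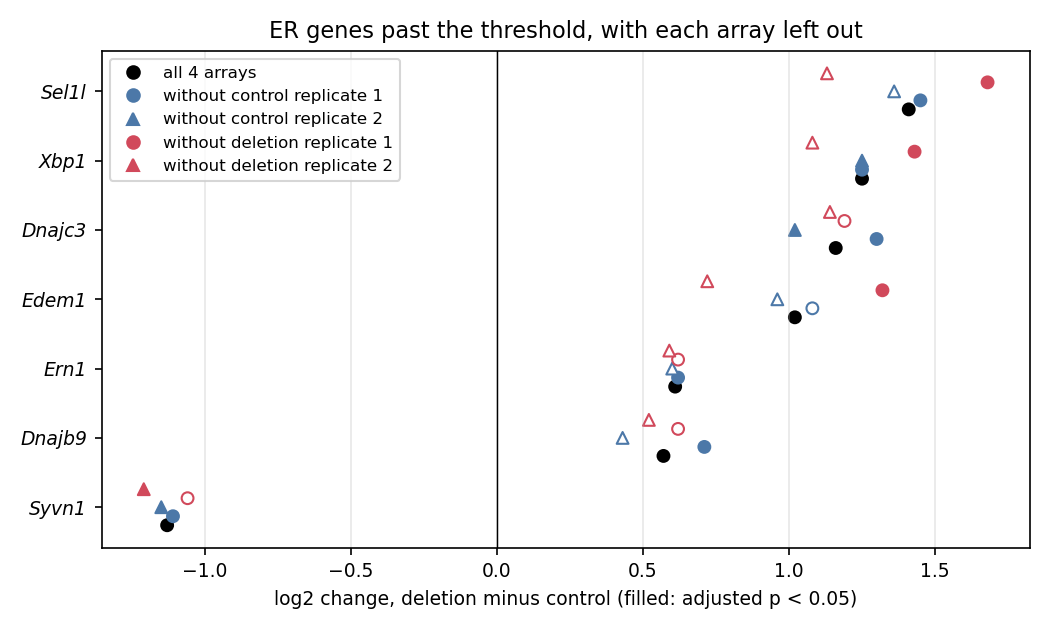
Log2 change, deletion minus control, of the 7 genes that passed, with all 4 arrays and with each array left out in turn. The 6 changes that rose stay above 0 and that of Syvn1 stays below 0 in every case, and open marks show where the adjusted p was no longer under 0.05.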

How the data were processed

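The deposited table holds a non-normalized signal intensity and a detection p-value against negative control beads for each of 45281 probes on each array, per the file headers. Per the submitters' processing notes they came from GenomeStudio, and the sources used here give no version or settings. The authors' processed intensity, a linear scale, served as an alternative only.

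Intensities were background corrected by normexp with negative controls inferred from the detection p-values (offset 16), quantile normalized and log2 transformed with limma 3.58.1 in R 4.3.3. The 18367 probes kept had detection p-values below 0.05 on 2 or more arrays. Dim probes depend most on the correction. lmFit and eBayes compared deletion with control (residual degrees of freedom 2, prior 2.72), with p-values adjusted by Benjamini-Hochberg across the 18367 probes at a threshold of 0.05. Every adjusted p here is from that fit unless an alternative is named. The fit was checked on simulated data.

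Genes were named by the platform table (34885 probes, 34807 matched to RefSeq by Entrez ID) or, failing that, the array's own name (1722 probes, among them that of Dnajb11), and 8674 probes stayed unnamed. Of the 63 probes of the 36 genes, 62 carried a listed name and 1 the current symbol of a listed gene. A gene is represented by its brightest tested probe. A gene undetected in both arrays of a group has only a bound, the other group's mean against the lowest detected signal, given as "at least".

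Genes named with values on every array are those that passed and Hspa5, Hsp90b1, Xbp1, Atf6, Ern1, Herpud1, Dnajb9, Ero1l, Mzb1 and Derl3, with the other genes by summary, and from the wider pathway the 4 largest rises and 4 largest falls. Atf6b, Calr, Edem2 and Fkbp11 were added to the former, and single PERK branch genes and the other pathway calls were named, after their values were seen. The 36 genes and all lists were chosen with earlier results of these data known. The alternatives were uncorrected signals (no background correction), normexp alone (no control probes, offset 50), cyclic loess or median scaling for quantile normalization, detection p under 0.01 on every array or no detection filter, a trended robust prior (intensity trend), the authors' processed values, the replicate block, the mean of a gene's detected probes, and leaving out arrays in turn. Replicate numbers did not pair the samples. Promoters are RefSeq's for GRCm38.p6. Protein sequences were not analysed here.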

Additional observations from a re-analysis of the deposited data

How the results depend on the processing

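No call among the 7 genes that passed changed sign under any alternative run. The number of ER genes that rose, 6, became 12 with uncorrected signals, 11 with normexp alone or the authors' processed values and 13 with a trended robust prior. The share of all genes called under these alternatives was not counted, so the counts have no background beside them. The cause was not tested. The number that fell stayed at 1 under every alternative that kept all 4 arrays. Of the wider pathway 10 rose, against 5 with median scaling and 16 with the trended prior or the authors' values. In that pathway 5 fell, against 8 with the trended prior. Calls in both sets were also lost when any 1 array was left out. No pairing of the samples by replicate number was seen (correlation of replicate differences 0.0253), though this single value cannot exclude a weak pairing. The replicate block gave 6 and 1 for the ER genes and 5 and 3 for the wider pathway. The median log2 change of the ER genes, 0.314, was 0.252 without background correction, 0.2 with median scaling (all genes -0.1063), 0.236 without a detection filter, 0.256 with the authors' values and 0.303 to 0.378 with 1 array left out. Signs turned only for genes that did not pass. Median scaling gave Hspa5 0.03, Hsp90b1 -0.16, Dnajc10 -0.13, Herpud1 -0.15, Sec61a1 -0.00 and Atf4 -0.03, cyclic loess gave Hsp90b1 -0.02 and Herpud1 -0.01, and the mean of probes gave Herpud1 -0.06. With 1 array left out the ranges were -0.39 to 0.37 for Hspa5, -0.13 to 0.15 for Hsp90b1, -0.06 to 0.47 for Hyou1, -0.08 to 0.37 for Pdia6, -0.78 to 0.19 for Mzb1, -0.09 to 0.17 for Herpud1, -0.24 to 0.05 for Atf6, -0.09 to 0.45 for Sec61a1 and -0.19 to 0.06 for Sec11c. With detection under 0.01 on all 4 arrays Edem1, Trib3 and Eif2ak3 were not tested. Signal near background limits the values of Hspa5, Hyou1, Atf6, Edem1, Derl3 and Eif2ak3, and Hyou1 went from 0.21 to 0.07 with uncorrected signals. Trib3 also missed detection under 0.01 on at least 1 array, and its log2 change of 5.57 became 3.93 with uncorrected signals.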
